A study of Mus musculus with 2 samples.

Results

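The genes described here encode 9 families of enzymes that process foreign compounds, aldehydes and other reactive molecules. They were chosen by symbol from the deposited table: cytochromes P450 (Cyp), aldehyde dehydrogenases (Aldh), alcohol dehydrogenases (Adh), soluble glutathione transferases of the alpha, kappa, mu, omega, pi and theta classes (Gst), microsomal glutathione transferases (Mgst), UDP-glucuronosyltransferases (Ugt), sulfotransferases (Sult), carboxylesterases (Ces) and epoxide hydrolases (Ephx), leaving out Aldh6a1, Gsta3 and Gstm1. The rule found 70 genes among 10778 symbols, in 77 of 14189 transcript rows. The rule reads symbols and no measured value.

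Poly(A) RNA of brown fat, a heat-producing tissue rich in mitochondria, was sequenced from male mice of the strain C57BL6/J aged 8 to 12 weeks. The SML group received SML into the peritoneum at 5 mg per kg body weight during 10 days on a diet that drew 60% of its calories from fat. The HFD control group had those 10 days of diet without SML. The series title names sesaminol, a lignan of sesame, and the labels write SML. Each group had 1 library, and the sources used here do not give how many animals or depots were pooled into it. Every comparison below is therefore between 2 libraries, with no replicate check and no test. The table held 8507264 fragments for SML and 12005329 for HFD control. Of 10 brown adipocyte markers 9 were kept, with 2 higher (Dio2 and Zic1) and 0 lower by the rule given below. Ucp1, the uncoupling protein, stood at 7955 FPKM in SML and 8702 FPKM in HFD control, and Cox8b at 14820 FPKM in SML and 22040 FPKM in HFD control. Others of the list were scarce, such as Zic1 at 2.17 FPKM in SML and 0.86 FPKM in HFD control. Markers of other tissues and cell types differed between the libraries: 12 skeletal muscle markers summed to 280 FPKM in SML and 4178 FPKM in HFD control, and all 12 were lower. Of the 12, Myh1 and Myh2, at 0.67 and 0.43 FPKM in SML, passed the level filter given below only through HFD control. All 4 erythroid markers were lower too, with a summed level of 1012 FPKM in SML and 1974 FPKM in HFD control. Of 4 white adipocyte markers 2 were lower and 0 higher, with a summed level of 1587 FPKM in SML and 2096 FPKM in HFD control. Most of that sum was Adipoq, at 1436 FPKM in SML and 1829 FPKM in HFD control. Of 8 endothelial markers 1 was lower and 0 higher, with 105 FPKM in SML and 149 FPKM in HFD control. The white adipocyte and endothelial sums do not separate RNA of cells within brown fat from RNA of other tissue. Not every list ran lower. Of 4 mast cell markers 2 were higher and 0 lower, with a summed level of 11.2 FPKM in SML and 7.65 FPKM in HFD control. Of 8 preadipocyte and fibroblast markers 1 was higher and 0 lower, with 159 FPKM in SML and 169.5 FPKM in HFD control. The part of these tissues and cell types in the members' differences was not tested.

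Detoxification is usually described in steps. Cytochromes P450 and the alcohol and aldehyde dehydrogenases oxidise a compound, and the transferases then join it to glutathione, glucuronic acid or sulfate so that it can be exported. Many of these enzymes also have substrates made by the cell itself. In fat these include the aldehydes left by lipid peroxidation, epoxides of fatty acids, retinol and its aldehyde, sterols and the esters of stored lipid. Several of the genes are known targets of the aryl hydrocarbon receptor, of the antioxidant factor NRF2 or of the xenobiotic receptors CAR and PXR.

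The upstream sequences of 6 members are shown to set letters bound by known regulators of these families beside members inside and outside the size rule: Gstm5 and Mgst1, which hold a core of the antioxidant response element, Mgst3, which holds a core of the aryl hydrocarbon response element, and Cyp4b1, Aldh1a1 and Cyp2j6, which passed the size rule given below and hold neither. Each runs 5′ to 3′ over the 250 bases before a RefSeq transcription start of the gene (build GRCm38.p6), with capitals where either core was found on either strand.
Gstm5, chr3:107895604-107895853, plus strand: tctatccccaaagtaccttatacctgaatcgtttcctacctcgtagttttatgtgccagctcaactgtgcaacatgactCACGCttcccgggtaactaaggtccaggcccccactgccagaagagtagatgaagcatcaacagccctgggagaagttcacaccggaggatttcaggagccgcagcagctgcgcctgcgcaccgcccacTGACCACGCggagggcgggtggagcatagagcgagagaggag
Mgst1, chr6:138140277-138140526, plus strand: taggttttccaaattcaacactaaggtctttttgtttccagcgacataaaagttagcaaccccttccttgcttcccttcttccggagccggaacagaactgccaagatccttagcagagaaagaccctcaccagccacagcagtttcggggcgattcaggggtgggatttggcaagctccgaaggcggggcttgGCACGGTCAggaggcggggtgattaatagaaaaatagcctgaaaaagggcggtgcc
Mgst3, chr1:167393842-167394091, minus strand: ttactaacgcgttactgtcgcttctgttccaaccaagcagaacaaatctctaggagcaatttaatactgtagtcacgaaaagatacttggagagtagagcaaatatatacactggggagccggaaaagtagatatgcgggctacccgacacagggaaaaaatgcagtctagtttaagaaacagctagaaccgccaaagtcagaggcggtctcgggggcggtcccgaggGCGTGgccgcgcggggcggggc
Cyp4b1, chr4:115647722-115647971, minus strand: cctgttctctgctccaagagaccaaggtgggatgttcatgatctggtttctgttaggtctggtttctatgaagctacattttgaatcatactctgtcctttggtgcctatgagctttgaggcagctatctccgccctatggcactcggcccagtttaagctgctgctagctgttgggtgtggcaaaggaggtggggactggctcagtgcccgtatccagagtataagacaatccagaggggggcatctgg
Aldh1a1, chr19:20601718-20601967, plus strand: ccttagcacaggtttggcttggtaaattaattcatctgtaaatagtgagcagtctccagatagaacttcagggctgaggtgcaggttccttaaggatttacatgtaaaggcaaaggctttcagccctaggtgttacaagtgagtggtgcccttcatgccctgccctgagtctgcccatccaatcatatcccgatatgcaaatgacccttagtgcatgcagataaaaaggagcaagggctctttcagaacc
Cyp2j6, chr4:96553652-96553901, minus strand: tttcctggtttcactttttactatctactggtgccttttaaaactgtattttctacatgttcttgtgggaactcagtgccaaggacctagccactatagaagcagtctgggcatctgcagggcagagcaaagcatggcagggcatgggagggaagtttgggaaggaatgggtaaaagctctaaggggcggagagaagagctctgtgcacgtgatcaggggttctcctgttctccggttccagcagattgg
The antioxidant core searched was TGACNNNGC and the aryl hydrocarbon core was GCGTG, both on either strand. The 2 can overlap, as they do in the capitals nearest the start of Gstm5, where TGACCACGC also holds the aryl hydrocarbon core on the other strand. TGACNNNGC was found in 10.2% and GCGTG in 28.2% of 32851 upstream windows of this length. Among the 42 of the 54 members kept by the level filter that had a window, 5 held the first (Aldh9a1, Cyp4f18, Gstm5, Gstm7 and Mgst1) and 13 the second (31.0%). Over the 7595 genes kept that had a window, the shares were 14.3% and 51.5%. These matches describe letters and not binding.

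Levels are given as FPKM (fragments per kilobase of transcript, scaled to library size), summed over the transcripts of a symbol, which makes them comparable between genes. Differences are of log2(FPKM + 1), SML minus HFD control, a scale on which changes of low genes look smaller. A gene was kept where its FPKM averaged 1 or more across the 2 libraries. A gene under 1 FPKM in 1 library can pass this filter only through the other, which favours a call towards that other library. A gene is called higher or lower when its difference reached 1.5-fold. A ratio is the SML scaled count over the HFD control scaled count. Its 95% interval in brackets, an exact conditional binomial interval, covers counting error only and not the spread between animals or PCR duplicates.

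Of the 70 members 54 were kept. Of these, 7 were lower and 1 was higher in the SML library, while 46 were neither. Over all 9887 genes kept, 5.76% were lower and 5.44% were higher. The lower members were Aldh1a1, Aldh3b1, Cyp4b1, Cyp4f18, Cyp20a1, Gstt3 and Mgst3, and the higher one was Cyp2j6. Aldh3b1 and Cyp4f18 were under 1 FPKM in SML and passed the filter only through HFD control. The median difference of the 54 was -0.16, beside 0 over all genes kept. With the trend across genes in GC content and length removed it was -0.09, beside 0.03 over all genes. Differences below 0 were found in 39 of the 54 (72.2%), against 49.8% of all genes kept. The interval of the ratio lay wholly below 1 for 23 members (42.6%) and wholly above 1 for 7 (13.0%), where the shares over all genes kept were 23.5% and 25.1%.

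**Figure D1:**
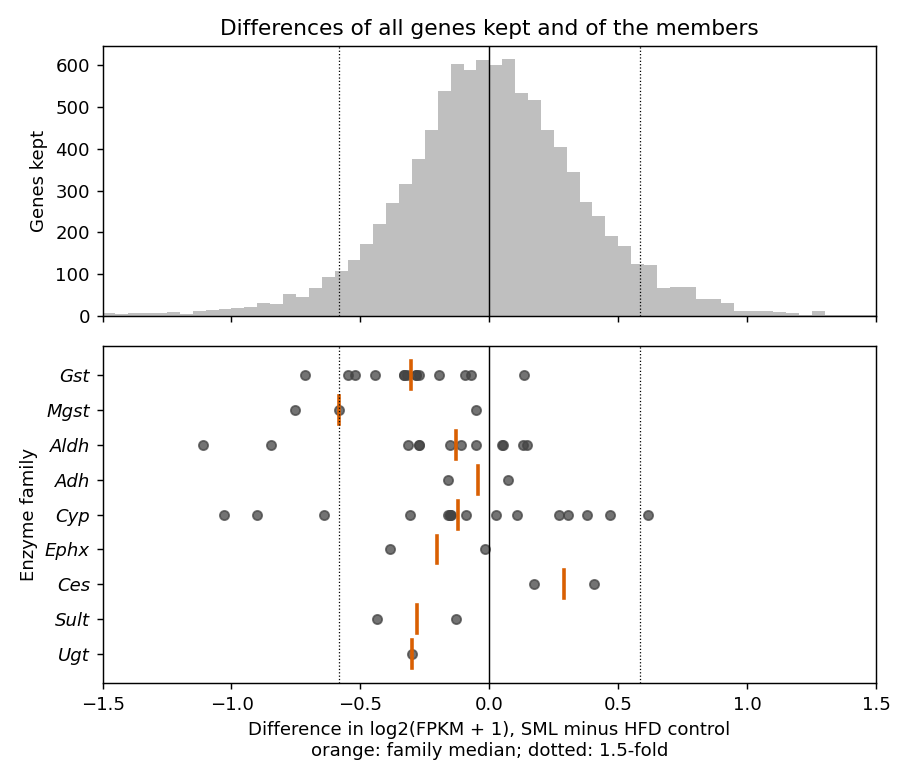
Differences in log2(FPKM + 1), SML minus HFD control, for all 9887 genes kept (upper panel, histogram, with 127 genes beyond 1.5 in size outside the axis) and for the 54 members kept (lower panel, 1 point per gene, by family, orange bars for family medians). Of the 17 glutathione transferase points 16 lie left of 0 (14 with the trend with GC content and length removed), the P450 points lie on both sides, and 8 points lie beyond the dotted 1.5-fold lines.

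The summed level of the 70 members was 4403 FPKM in SML and 4550 FPKM in HFD control, and a few genes made up most of it. Mgst1, Ces1d and Ephx2 together gave 54.1% of the sum in SML and 47.8% in HFD control. Of the members kept, 10 had a mean of at least 100 FPKM and 21 a mean under 10 FPKM. Past the rule were 1 of the 10, Mgst3, and 6 of the 21. The other 1 that passed, Cyp4b1, lay among the 23 at intermediate levels. Over all genes kept, 6.53% were lower and 6.29% higher at a mean under 10 FPKM, 4.601% and 4.885% at intermediate levels, and 5.65% and 2.72% from 100 FPKM.

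**Figure D2:**
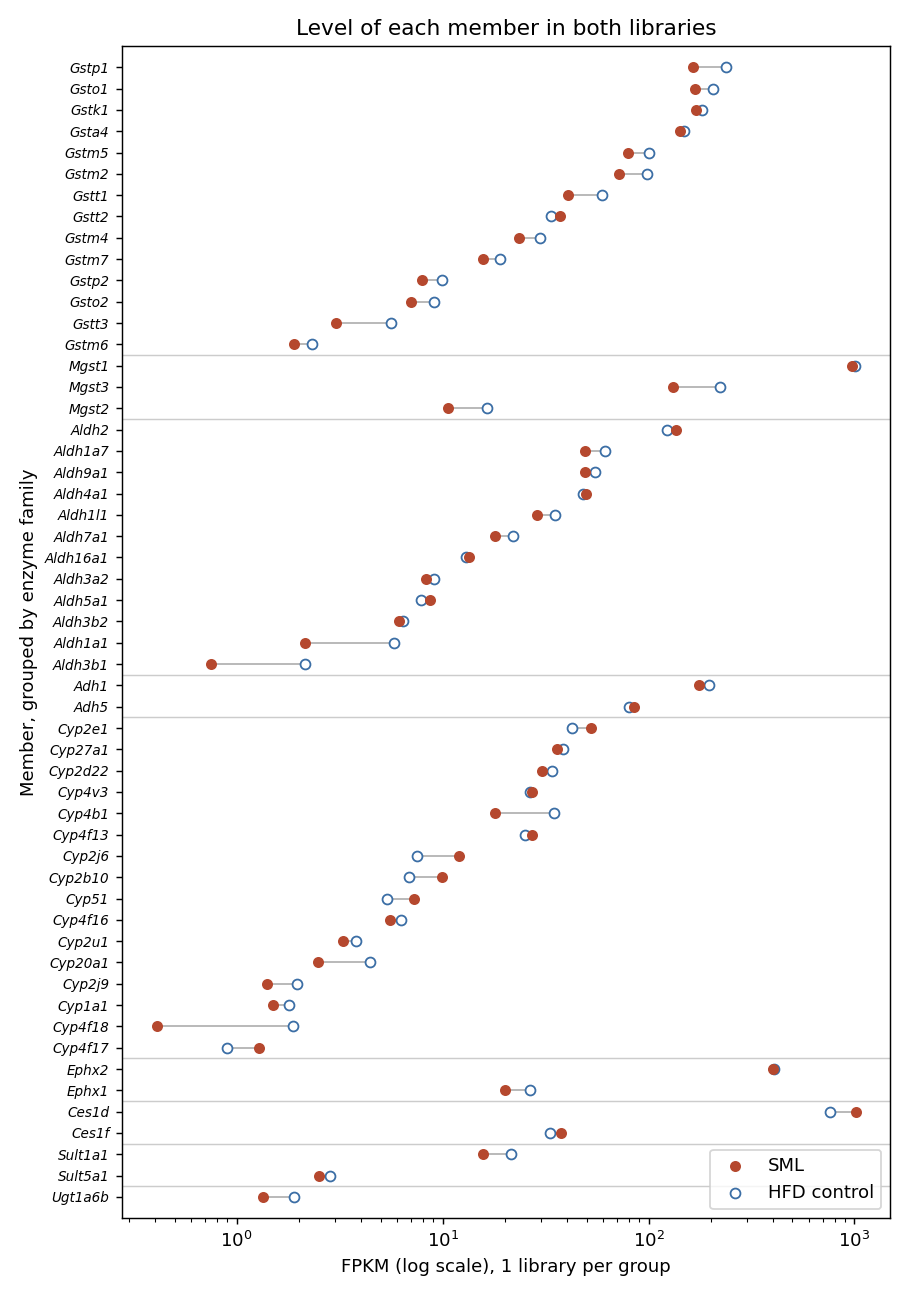
FPKM on a log axis for the 54 members kept, with filled points for the SML library and open points for the HFD control library (1 library each) and a line joining the pair. Mgst1 and Ces1d lie highest, and the longest lines, for Cyp4f18, Aldh1a1 and Aldh3b1, belong to genes with low FPKM.

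Glutathione transferases, which couple glutathione to electrophiles, lay mostly below 0, with 2 of them past the size rule. Of the 17 Gst and Mgst members, all kept, 16 had a difference below 0, 2 were lower, 0 were higher, and the median was -0.32. The members above 0 under another setting are named below. Transcripts of this group are short, with a median length of 1105 bases beside 2814 over all genes kept. Over all genes kept, Spearman's rho of the difference was -0.33 with GC content and 0.16 with length, a description across genes, which are not independent. With that trend removed 14 of the 17 stayed below 0, with a median of -0.17, while 46.2% of all genes did. With totals made equal outside the 50 most abundant genes 15 of 17 did, as they did with only the top transcript of each symbol.

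Among the transferases with a mean of at least 100 FPKM, 1 passed the rule, Mgst3, a membrane-bound transferase and peroxidase of the endoplasmic reticulum (chr1:167372383-167393797, mm10). It stood at 132 FPKM in SML and 222 FPKM in HFD control, a ratio of 0.587 (0.531 to 0.647), and its upstream window, printed above, holds GCGTG 22 bases before the start. Mgst2, an enzyme that can make leukotriene C4, stood at 10.6 FPKM in SML and 16.4 FPKM in HFD control. Its difference of -0.58 was just short of the rule, and the ratio of 0.641 (0.433 to 0.935) rested on 42 and 89 fragments in SML and HFD control. Mgst1, which protects membranes from oxidised lipid, was the most abundant transferase and was nearly level between the libraries, at 970 FPKM in SML and 1005 FPKM in HFD control, with a ratio of 0.961 (0.932 to 0.991). The 3 microsomal genes thus spread from near equality to past the rule, in the order Mgst1, Mgst2, Mgst3. The interval of Mgst2 overlaps that of Mgst1 and that of Mgst3, so its place in the order is not resolved. The Mgst1 difference turned to 0.003 with totals made equal outside the 50 most abundant genes.

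Pi class Gstp1 stood at 165 FPKM in SML and 237 FPKM in HFD control, a ratio of 0.691 (0.637 to 0.749). Its neighbour Gstp2 stood at 7.94 FPKM in SML and 9.89 FPKM in HFD control. Of the words of 50 bases in the Gstp1 transcript 62.3% also occur in Gstp2, so how fragments were split between this pair is uncertain. Gsto1, an omega class enzyme that reduces dehydroascorbate, stood at 169 FPKM in SML and 206 FPKM in HFD control with a ratio of 0.816 (0.767 to 0.869). Gsto2 was listed as 2 transcripts: 1 had 77.0 fragments in SML and 70.1 in HFD control, while the other had 0 in SML and 63.0 in HFD control. The sum over both gave 7.04 FPKM in SML and 9.10 FPKM in HFD control, and the difference of -0.33 turned to 0.50 when only the more abundant transcript was used.

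Alpha class Gsta4, known for conjugating the lipid peroxidation product 4-hydroxynonenal, and kappa class Gstk1, an enzyme of mitochondria and peroxisomes, differed little. Gsta4 stood at 141 FPKM in SML and 149 FPKM in HFD control (ratio 0.946, 0.874 to 1.02), and Gstk1 at 169 FPKM in SML and 181 FPKM in HFD control (ratio 0.931, 0.866 to 1.002). Both intervals include 1, and both differences turned slightly above 0, to 0.06, with the trend with GC content and length removed.

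The theta class diverged within a stretch of 60.8 kb on chromosome 10. Gstt3 stood at 3.03 FPKM in SML and 5.62 FPKM in HFD control, 1.85-fold lower (1.33 to 2.63), on 50 and 126 fragments. Gstt1, which also acts on small halogenated compounds, stood at 40.5 FPKM in SML and 59.7 FPKM in HFD control, a ratio of 0.675 (0.591 to 0.771) that was short of the rule. Gstt2, the third gene of the cluster, stood at 37.1 FPKM in SML and 33.7 FPKM in HFD control, a ratio of 1.10 (0.964 to 1.25). Gstt2 was the 1 transferase of 17 with a difference above 0, and its interval does not overlap that of Gstt1.

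The mu class lies in 1 cluster of 168 kb on chromosome 3, in the order Gstm5, Gstm7, Gstm6, Gstm2 and Gstm4 among the members. All 5 had a difference below 0, and the ratios were close to each other, from 0.730 for Gstm2 to 0.815 for Gstm6. Gstm2 stood at 72.0 FPKM in SML and 98.2 FPKM in HFD control (ratio 0.730, 0.660 to 0.806), and Gstm5 at 79.6 FPKM in SML and 100 FPKM in HFD control (ratio 0.790, 0.711 to 0.877). The summed level of the 5 was 193 FPKM in SML and 250 FPKM in HFD control. None passed the rule, and all 5 differences stayed below 0 under every setting that kept the gene (the filter at 5 FPKM leaves out Gstm6), with a median of -0.17 once the GC and length trend was removed. The Gstm5 window printed above holds TGACNNNGC 42 bases before the RefSeq start, which lies inside the longer locus of the deposited table. For Gstm5, 17.9% of the annotated exon bases are shared with the gene 4933431E20Rik on the other strand, and reads of overlapping genes cannot be told apart without strand. Other members share this limit with smaller overlaps. These run from 14.1% with 1 gene for Aldh5a1, through Cyp2u1, Ugt1a6b, Aldh1l1, Adh1, Aldh7a1, Cyp51, Sult1a1 and Aldh16a1, to 3.13% for Aldh2.

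**Figure D3:**
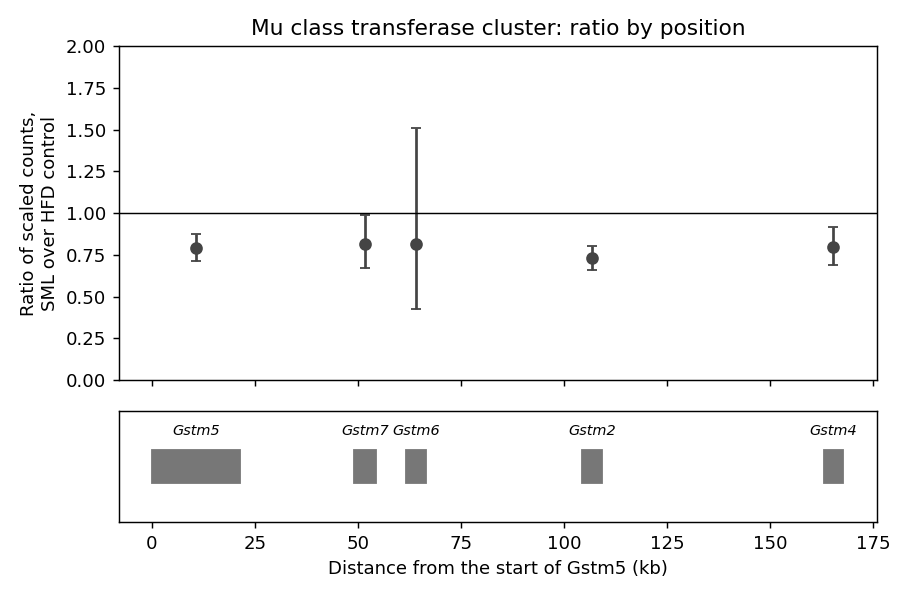
Ratio of scaled counts, SML over HFD control, for the 5 mu class members by position in kb from the start of Gstm5 (upper panel, bars are 95% intervals for counting error), with the extent of each gene below. All 5 ratios lie between 0.730 and 0.815, and the widest interval, that of Gstm6, rests on 18 fragments in SML and 30 in HFD control.

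Aldehyde dehydrogenases were short of the rule apart from 2 genes of low abundance. Of 12 members, all kept, 2 were lower, 0 were higher and the median difference was -0.13. Aldh1a1, which turns retinaldehyde into retinoic acid (chr19:20601981-20643462, mm10), stood at 2.16 FPKM in SML and 5.83 FPKM in HFD control. That was 2.70-fold lower (1.88 to 3.95), on 39 and 143 fragments. Its neighbour Aldh1a7, a rodent paralog, was more abundant, at 49.1 FPKM in SML and 61.3 FPKM in HFD control, with a ratio of 0.799 (0.734 to 0.867) short of the rule. Of the words of 50 bases in the Aldh1a1 transcript 6.54% also occur in Aldh1a7. Aldh3b1, an enzyme for medium and long-chain aldehydes, stood at 0.75 FPKM in SML and 2.15 FPKM in HFD control, 2.88-fold lower (1.51 to 5.97) on 12 and 47 fragments. Its paralog Aldh3b2 stood at 6.17 FPKM in SML and 6.44 FPKM in HFD control.

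Aldh2, the mitochondrial enzyme for acetaldehyde and lipid aldehydes, was the most abundant of the family and stood at 137 FPKM in SML and 123 FPKM in HFD control, a ratio of 1.11 (1.07 to 1.16). Aldh3a2, which oxidises fatty aldehydes, stood at 8.35 FPKM in SML and 9.09 FPKM in HFD control. Among dehydrogenases of amino acid breakdown, Aldh4a1 of proline breakdown stood at 49.9 FPKM in SML and 48.0 FPKM in HFD control. Aldh7a1 of lysine breakdown had a ratio of 0.822 (0.733 to 0.920). Aldh9a1, an enzyme of carnitine synthesis, stood at 49.4 FPKM in SML and 55.0 FPKM in HFD control. Aldh1l1, which oxidises 10-formyltetrahydrofolate in one-carbon metabolism, had a ratio of 0.822 (0.752 to 0.897). The other 2 members, Aldh5a1 and Aldh16a1, had ratios of 1.11 and 1.04. Of these 8 genes 4 had a difference below 0 and none reached the 1.5-fold rule.

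The alcohol dehydrogenases were near level. Adh1, which oxidises ethanol and retinol, stood at 175 FPKM in SML and 196 FPKM in HFD control (ratio 0.890, 0.841 to 0.943). Adh5, which removes formaldehyde and S-nitrosoglutathione, stood at 84.7 FPKM in SML and 80.5 FPKM in HFD control (ratio 1.05, 0.970 to 1.13).

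Cytochromes P450 moved in both directions. Of 26 members 16 were kept, with 3 lower, 1 higher and a median difference of -0.12. Cyp4b1, which hydroxylates fatty acids and activates some plant toxins (chr4:115624727-115647705, mm10), stood at 18.1 FPKM in SML and 34.6 FPKM in HFD control, 1.92-fold lower (1.68 to 2.20). In SML 5 P450 genes had a higher level than Cyp4b1, and in HFD control only Cyp2e1 and Cyp27a1 did. Cyp4f18, which inactivates leukotriene B4 in mouse leukocytes, stood at 0.41 FPKM in SML and 1.88 FPKM in HFD control, 4.66-fold lower (1.96 to 13.5) on 6 and 38 fragments. Macrophage markers stood beside it, with 6 of 9 lower and 0 higher and a summed level of 282 FPKM in SML and 466 FPKM in HFD control. Their part in the Cyp4f18 difference was not tested, and in bulk tissue fewer cells of a type and less RNA per cell cannot be told apart. Cyp20a1, an orphan P450, stood at 2.49 FPKM in SML and 4.45 FPKM in HFD control, 1.79-fold lower (1.18 to 2.80).

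Cyp2j6, of the subfamily that makes epoxides from arachidonic acid (chr4:96516137-96553651, mm10), was the 1 higher member. It stood at 12.1 FPKM in SML and 7.51 FPKM in HFD control, a ratio of 1.60 (1.38 to 1.86), and with the trend with GC content and length removed its difference of 0.62 became 0.43, under the rule. Its neighbour Cyp2j9 stood at 1.40 FPKM in SML and 1.97 FPKM in HFD control, a ratio of 0.709 (0.414 to 1.19). Cyp2b10, the classic mouse target of the receptor CAR, stood at 9.92 FPKM in SML and 6.89 FPKM in HFD control, a ratio of 1.44 (1.15 to 1.802) short of the rule. Cyp1a1, the classic target of the aryl hydrocarbon receptor, stood at 1.51 FPKM in SML and 1.79 FPKM in HFD control, a ratio of 0.843 (0.540 to 1.30), and its upstream window holds GCGTG.

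Cyp2e1, which oxidises ethanol and small solvents, was the most abundant P450 at 52.8 FPKM in SML and 42.6 FPKM in HFD control, a ratio of 1.24 (1.12 to 1.36). Of the P450 genes with sterol substrates, Cyp51, the lanosterol demethylase of cholesterol synthesis, stood at 7.25 FPKM in SML and 5.35 FPKM in HFD control (ratio 1.35, 1.15 to 1.60). Cyp27a1, the sterol 27-hydroxylase of mitochondria, stood at 36.0 FPKM in SML and 38.4 FPKM in HFD control. The other P450 members kept (Cyp2d22, Cyp2u1, Cyp4f13, Cyp4f16, Cyp4f17 and Cyp4v3) had differences from -0.16 to 0.27, and all 6 intervals of the ratio include 1. Cyp1b1 was not analysed here.

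**Figure D4:**
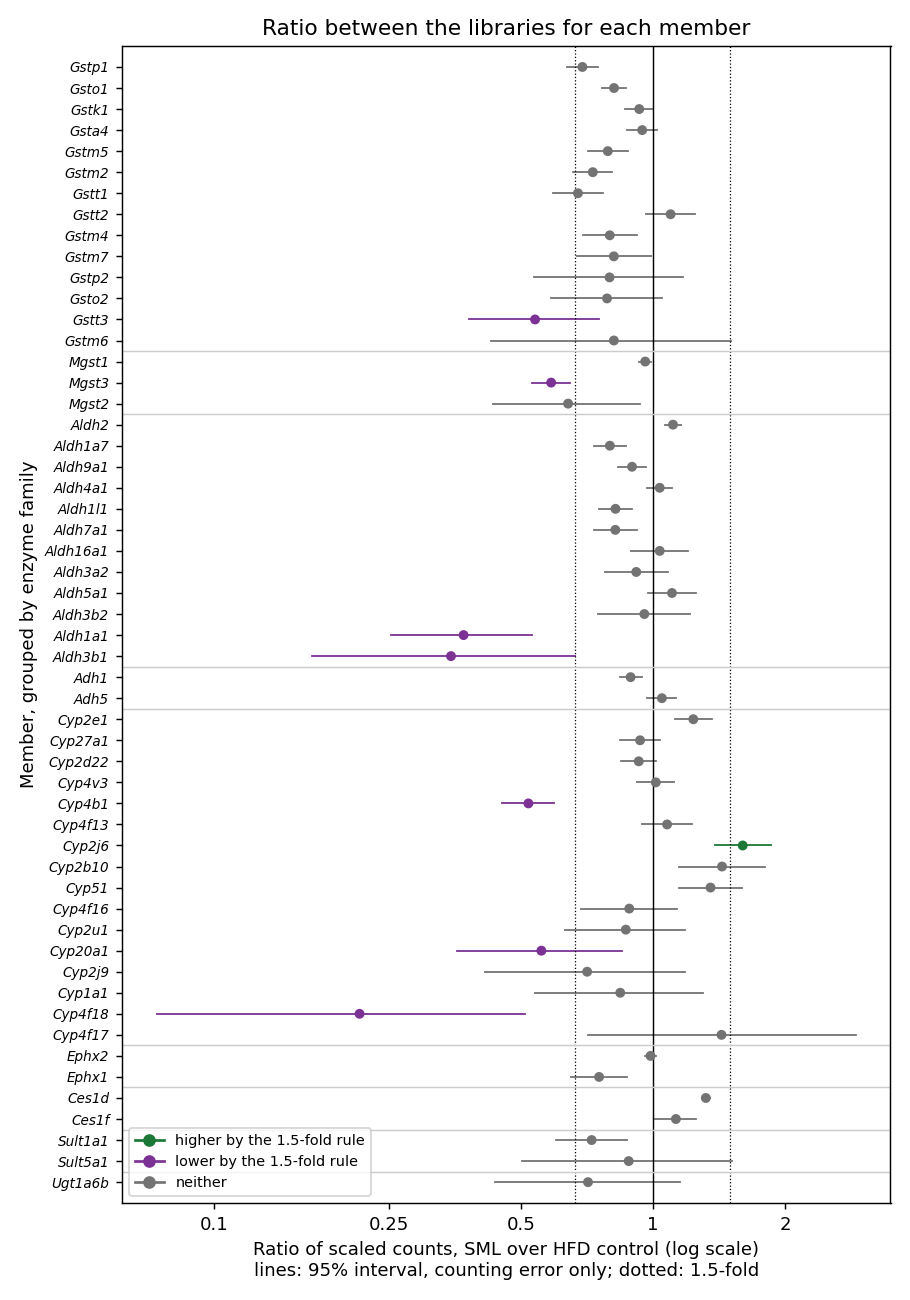
Ratio of scaled counts, SML over HFD control, on a log axis for the 54 members kept, grouped by family and ordered by level, with 95% intervals for counting error and dotted lines at 1.5-fold. The 7 lower members and the 1 higher member are coloured, and all glutathione transferase ratios but that of Gstt2 lie left of 1 (with rescaled totals Mgst1, and with the trend with GC content and length removed Gsta4 and Gstk1, and with only the top transcript Gsto2, had differences above 0). Calls rest on log2(FPKM + 1), so Mgst2 lies past the dotted line without being called.

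Hydrolases held 2 of the most abundant members. Ces1d, a carboxylesterase of fat and liver that hydrolyses triglyceride, stood at 1012 FPKM in SML and 764 FPKM in HFD control, a ratio of 1.32 (1.29 to 1.35) that was short of the rule. Ces1f of the same cluster stood at 37.5 FPKM in SML and 33.1 FPKM in HFD control (ratio 1.13, 1.01 to 1.26). Ephx2, the soluble hydrolase that turns fatty acid epoxides into diols, was level in sum, at 402 FPKM in SML and 406 FPKM in HFD control with a ratio of 0.989 (0.959 to 1.02). Its difference of -0.02 turned to 0.04 with rescaled totals, to 0.06 with the trend with GC content and length removed and to 0.05 with only the top transcript. Its 3 listed transcripts were not level: the main one stood at 395 FPKM in SML and 381 FPKM in HFD control. A second stood at 0.09 FPKM in SML and 22.4 FPKM in HFD control, with 1.5 estimated fragments in SML and 536.8 in HFD control. The third stood at 6.13 FPKM in SML and 2.95 FPKM in HFD control. These are estimated splits of fragments between overlapping transcripts, and their error is not in the deposited table. Ephx1, the microsomal hydrolase, stood at 20.1 FPKM in SML and 26.6 FPKM in HFD control, a ratio of 0.755 (0.652 to 0.873) short of the rule.

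The conjugating enzymes for sulfate and glucuronic acid were scarce. Sult1a1, a phenol sulfotransferase, stood at 15.6 FPKM in SML and 21.5 FPKM in HFD control (ratio 0.726, 0.602 to 0.871). Sult5a1 stood at 2.52 FPKM in SML and 2.85 FPKM in HFD control. Ugt1a6b, the glucuronosyltransferase kept, stood at 1.35 FPKM in SML and 1.89 FPKM in HFD control, on 28 and 53 fragments. None of the 3 passed the rule.

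The other 16 members lay below the level filter, most of them P450, carboxylesterase and glucuronosyltransferase genes known from liver. Of these, 9 (Ces1c, Ces3a, Cyp2c29, Cyp2c50, Cyp2c70, Cyp2d10, Cyp2d26, Cyp3a11 and Ugt2b5) had 2 to 6 fragments in HFD control and 0 in SML, where a count of 0 allows up to 3 fragments. In the reverse pattern, with fragments only in SML, there were 0. Among all 891 genes below the filter 12.5% had fragments only in HFD control and 3.48% only in SML. Cyp2a12, Sult2a8 and Ugt2b36 had 0 fragments in both libraries. Cyp2d9 had 1 fragment in SML and 11 in HFD control, Cyp2f2 8 in SML and 14 in HFD control, Adh4 7 in both, and Cyp2r1, a vitamin D 25-hydroxylase, 3 in SML and 2 in HFD control. The 16 together gave 19 fragments in SML and 70 in HFD control. The SML FPKM of Adh4, Cyp2d9, Cyp2f2 and Cyp2r1 is listed at 0 although fragments were counted, so fragments are given for them. Member transcripts listed in this way numbered 5 in SML and 0 in HFD control. The other was the lesser transcript of Cyp2d22, a kept member, with 29.0 fragments in SML. Over all genes, 793 were listed at 0 FPKM in SML and 68 in HFD control. A value of 0 in SML alone lowers the difference. Hepatocyte markers moved in the same direction: 12 of 12 were in the table, they summed to 9.65 FPKM in SML and 50.8 FPKM in HFD control, and all 7 that were kept were lower. Of the 7, Alb, Apoa1, Ttr, Serpina1a and Serpina1b passed the filter only through HFD control, so their calls add little. In SML 7 of the 12, among them albumin (Alb), were listed at 0 FPKM. Alb was listed at 0 in SML and at 6.40 FPKM in HFD control, with 158 fragments there and 0 in SML. The part of liver RNA in these counts was not tested.

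**Figure D5:**
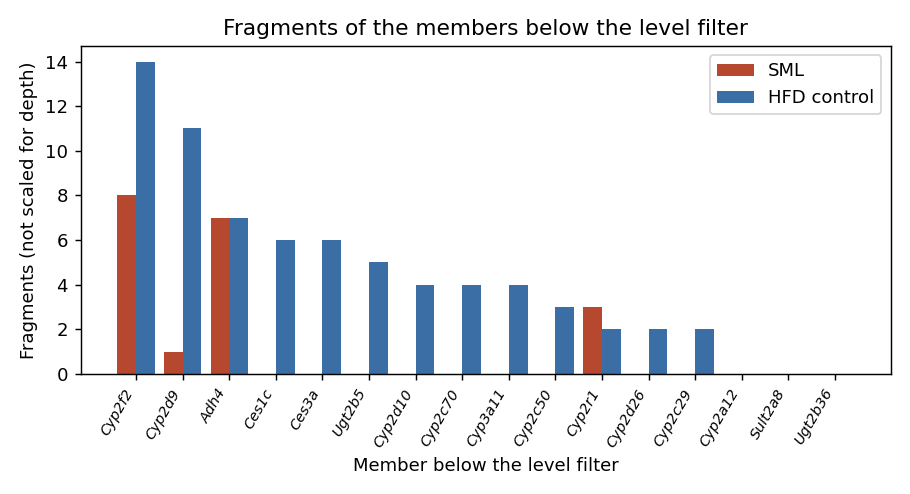
Fragments in the SML library and the HFD control library for the 16 members below the level filter, not scaled for depth. Only Cyp2f2, Adh4, Cyp2r1 and Cyp2d9 have a bar for SML, and no gene exceeds 14 fragments.

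Other genes of the pathway were read from 6 lists. Of the 117 that were kept, 8 were lower (6.84%) and 2 higher (1.71%), beside 5.76% and 5.44% over all genes kept. The median difference was -0.01. By list, in the order below, the lower share was 0%, 7.69%, 4.17%, 8.11%, 10.5% and 8.33%. The higher share was 0%, 0%, 4.17%, 2.7%, 0% and 0%. Each of these shares rests on 3 genes or fewer. Of 18 genes listed as sensors of xenobiotics or oxidants and their partners, the deposited table held 13. None of the 13 passed the rule in either direction. The genes of the receptors PXR (Nr1i2) and CAR (Nr1i3) were not among the 13, so nothing is said of them here. Pparg, Nr1h3 and Nr1h2 were the most abundant of the 13, with ratios of 1.07, 0.973 and 0.953. Nfe2l2, which encodes NRF2, stood at 30.4 FPKM in SML and 23.0 FPKM in HFD control (ratio 1.32, 1.19 to 1.47), and its inhibitor Keap1 at 19.7 FPKM in SML and 16.1 FPKM in HFD control (ratio 1.29, 1.15 to 1.44). Ahr, the aryl hydrocarbon receptor, stood at 1.22 FPKM in SML and 0.84 FPKM in HFD control.

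Among 13 genes of electron transfer to P450 enzymes and of haem turnover 1 was lower, Hmox1, the haem oxygenase, which degrades haem, at 9.28 FPKM in SML and 16.1 FPKM in HFD control. Por, the reductase shared by microsomal P450 enzymes, stood at 165 FPKM in SML and 178 FPKM in HFD control. Cyb5a, another donor, had a ratio of 0.900 (0.849 to 0.954), and Alas1, which starts haem synthesis, had a ratio of 0.743 (0.713 to 0.774). In glutathione synthesis, recycling and use 1 of 24 was higher, the peroxidase Gpx8 (ratio 1.78, 1.60 to 1.97), and 1 was lower, Chac1, which degrades glutathione (ratio 0.483, 0.255 to 0.871). The 2 subunits of the rate-limiting ligase, Gclc and Gclm, had ratios of 1.25 (0.951 to 1.65) and 1.11 (0.932 to 1.32). The abundant peroxidases Gpx4, Gpx3 and Gpx1 had ratios of 0.764, 1.09 and 0.777.

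Among 37 other aldehyde, ketone and xenobiotic enzymes 1 was higher and 3 were lower. The higher one was Papss2, which makes the sulfate donor (ratio 1.77, 1.41 to 2.22). The lower ones were the carbonyl reductases Cbr3 (3.13 FPKM in SML and 7.49 FPKM in HFD control) and Cbr2 (10.5 FPKM in SML and 20.2 FPKM in HFD control) and the methyltransferase Inmt (4.76 FPKM in SML and 8.14 FPKM in HFD control). Of the most abundant, Akr1a1 had a ratio of 0.680 (0.653 to 0.709) and Fmo1 a ratio of 1.42 (1.36 to 1.48). Of 19 retinoid genes 2 were lower: Dhrs3, which returns retinaldehyde to retinol, at 94.5 FPKM in SML and 175 FPKM in HFD control, and Fabp5, a lipid and retinoic acid carrier, at 147 FPKM in SML and 222 FPKM in HFD control. The most abundant of this list, Dhrs7 and Retsat, had ratios of 0.907 and 1.15. Of 12 transporters, mostly efflux pumps, 1 was lower, Abcc9, a subunit of potassium channels and not a pump. Abcc9 stood at 0.79 FPKM in SML and 2.34 FPKM in HFD control and passed the filter only through HFD control. Slc22a5, Slc22a3 and Abcc1 had ratios of 1.24, 0.993 and 1.10.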

How the data were processed

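The submitters deposited 1 table of assembled transcripts with an FPKM column and a column headed count for each library. Cufflinks, CASAVA 1.8 and the build mm10 are named in the submitters' processing notes. For the aligner, annotation and filters no source used here gives details. The values deposited as counts are a scaled signal: low values moved in steps of 0.866 in SML and 0.637 in HFD control, and 91.1% and 91.4% of the values up to 20 steps were whole within 0.1. Dividing by the step gave fragments, used for intervals and printed for low genes. That fell short of recovering whole reads, so no count test was run.

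FPKM and scaled counts were summed per symbol in Python 3.11.15 with pandas 2.3.3, and differences taken with a pseudocount of 1. The filter at a mean of 1 FPKM kept 9887 genes. GC content and length came from GENCODE M21 (GRCm38), with 99.3% of the genes kept matched. The procedure was tested on simulated fragments. The kit named in the labels does not mark strand. Intervals and floors cover counting error only.

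Members and gene lists were chosen with earlier results of these data known. Genes named are the members past the size rule, the 2 most abundant of each family or class, a set fixed by role, and, of the pathway lists, genes past the rule and the 3 most abundant, of which 1 is not reported here. Other names were picked with values in view: the remaining members, given for completeness, Nfe2l2, Keap1, Ahr, Gclc and Gclm, and the markers Ucp1, Cox8b, Dio2, Zic1 and Alb. Alternatives covered the pseudocount, filter, size rule, transcript summing, column used, scaling, and the GC and length trend.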

Additional observations from a re-analysis of the deposited data

How the results depend on the processing

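Under the 8 alternatives the median of the members kept its sign, at -0.20 to -0.09 beside -0.16 as reported. It was -0.09 once the trend in GC content and length was removed. The counts of members with a difference below 0, and of transferases with one, moved by less than 1.5 times. The 2-fold rule is 1 of the 8 and cannot change that median or these counts. Cyp2j6 was the 1 higher member under 6 alternatives, and there were 0 with a 2-fold rule and 0 with the GC and length trend removed. Lower members numbered 2 when the filter was set at 5 FPKM (Cyp4b1 and Mgst3), which admits fewer genes. They numbered 2 with the stricter 2-fold rule (Aldh1a1 and Cyp4f18). With a pseudocount of 0.1, and also from the count columns, they numbered 8, with Mgst2 added. With no filter they numbered 9, with Cyp2d9 and Cyp2f2 added. The same 7 genes passed as lower after removal of the GC and length trend and with rescaled totals. Each of the 7, like Cyp2j6, has 1 listed transcript, so using only the top transcript could not change their calls. Pathway genes higher and lower numbered 7 and 13 with a pseudocount of 0.1 and also 7 and 13 from the count columns, while 0 and 1 passed the 2-fold rule. Higher pathway genes numbered 1 with the filter at 5 FPKM, where fewer genes enter, and 4 with only the top transcript, and the cause of the last was not tested. For 35 named members 5 of the alternatives gave 175 values, of which 156 stayed within their counting interval. Of the rest, 18 moved beyond it and 1, Cyp2j6, dropped under the size rule. Part of the 156 was fixed in advance, since using only the top transcript cannot change a member with 1 listed transcript. Equal totals outside the 50 most abundant genes shifted differences by up to 0.05 and gave 657 higher and 490 lower of all genes, against 538 and 569 as reported. Those numbers were 850 and 834 with a pseudocount of 0.1, 884 and 820 from the count columns, 571 and 1117 with no filter, 319 and 306 with the filter at 5 FPKM, and 66 and 194 with the 2-fold rule. No paired analysis was possible because each group has 1 library. No replicate could be left out. Depth limits the members under about 3 FPKM. Cyp4f18, Aldh3b1 and the 16 below the filter rest on few fragments, as do Cyp4f17, Gstm6, Cyp2j9, Sult5a1, Ugt1a6b and Cyp1a1. The called Aldh1a1 and Cyp20a1 were under 3 FPKM in SML only, on 39 and 32 fragments there.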
